A study of Homo sapiens with 9 samples.

Results

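The genes described here are 48 nuclear genes for respiratory complex I, picked by symbol and not by any measured value from the 24542 genes and loci of the deposited count table. They comprise 36 subunits and 12 assembly factors. All 48 were found by Ensembl identifier, and all 48 had enough counts to be among the 15558 genes tested. The cells were A2780, an established human line of ovarian cancer origin, labelled wild type. Exposure lasted 96 h, and the drug doses were the IC80 values according to the protocol. The 3 groups were vehicle (DMSO, 0.5%), cisplatin (0.6 µM, written Cispt in the labels) and Pt-ttpy (5.5 µM), with 3 RNA-seq libraries in each and 9 in all. Cisplatin forms crosslinks in DNA. The series title presents Pt-ttpy as a ligand of G-quadruplexes, structures into which strands rich in guanine can fold. The labels call the 3 samples of a group biological replicates without saying whether these were separate cultures, so p-values measure the spread between these samples.

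Complex I takes electrons from NADH, passes them along a chain of iron-sulfur clusters to ubiquinone, and pumps protons across the inner mitochondrial membrane. Its matrix arm is built of an N module, where NADH is oxidised, and a Q module, where ubiquinone is reduced. Its membrane arm has a proximal and a distal part, each assembled around proteins encoded in mitochondrial DNA and clothed by many small nuclear-encoded accessory subunits. Assembly factors help to build these modules and join them, and are absent from the finished enzyme.

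Library totals lay between 31.3 and 40.8 M counts, and single complex I genes held from 183 to 10254 counts in a library. Levels are given as CPM, which are counts divided by library size after TMM scaling, or as RPKM, which divides CPM by exon length in kilobases. DMSO 2 and cisplatin 2 stood apart from the other libraries of their groups by transcript GC content. Across the 48 genes, the log2 ratio of DMSO 2 to the mean of DMSO 1 and 3 followed GC content with a Pearson r of 0.76 and a Spearman rho of 0.77. For cisplatin 2 these were 0.69 and 0.64, and for Pt-ttpy 2 they were 0.06 and 0.10. The 48 points of each correlation share their libraries, and no test was made. The 7 mtDNA-encoded complex I genes also set libraries apart, with summed levels of 15410 CPM in cisplatin 1 and 14830 CPM in Pt-ttpy 1, 2333 CPM in cisplatin 2, and 5833 to 6715 CPM in the other 6. The label was checked against cell type markers. PAX8, MUC16 and KRT7 were at 0 CPM in all 3 DMSO libraries, CDH1 and EPCAM did not exceed 0.169 CPM there. Of 3 mesenchymal markers, VIM was at 4922 to 6128 CPM in DMSO, while FN1 was at 1.09 to 1.75 CPM and CDH2 at 0.172 to 0.506 CPM. The epithelial markers of ovarian carcinoma were thus at or near 0 in these cells, and so were 2 of the 3 mesenchymal ones. Of 5 fibroblast markers, COL3A1 was at 472 to 488 CPM in DMSO, DCN at 303 to 337 CPM and LUM at 72.1 to 150.5 CPM. COL1A1 was at 9.88 to 12.3 CPM there and COL1A2 at 1.63 to 2.30 CPM.

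**Figure D1:**
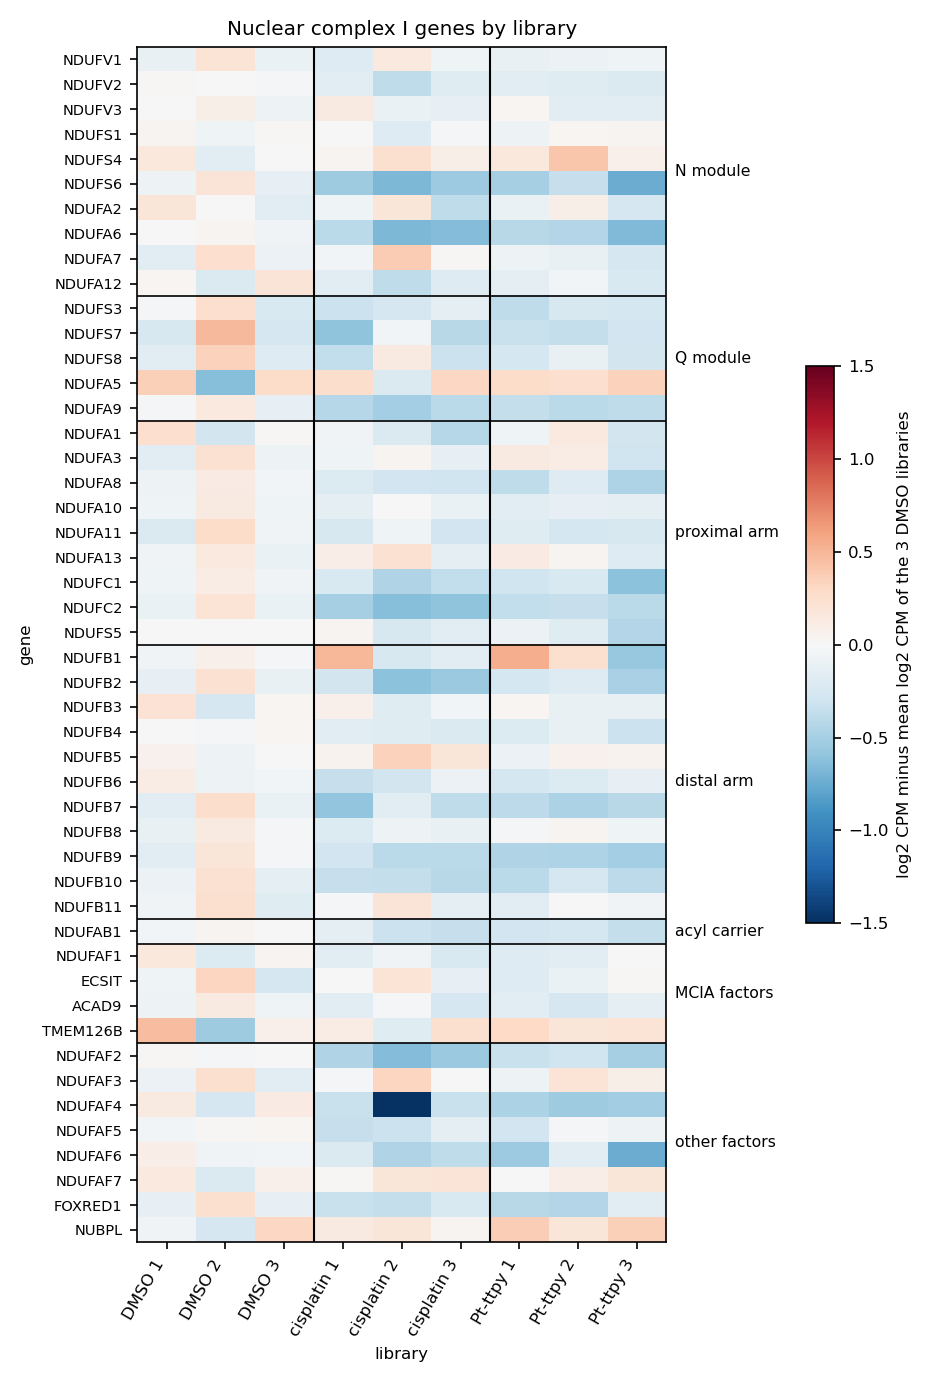
Level of each of the 48 genes (vertical axis, grouped by module) in each of the 9 libraries (horizontal axis), as log2 CPM minus the mean log2 CPM of the 3 DMSO libraries; blue is lower and red is higher. NDUFS6, NDUFA6, NDUFA9, NDUFC2, NDUFB9 and NDUFAF2 are blue in all 6 treated libraries, and NDUFA5, NDUFS7 and TMEM126B differ most between DMSO 2 and the other DMSO libraries.

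Steady-state levels spanned a wide range within the complex. NDUFS5, an intermembrane-space subunit of the proximal arm, was highest per length in DMSO at 197 ± 0.99 RPKM (SD, n = 3). It was followed by NDUFB10 at 85.0 ± 11.9 RPKM and NDUFB7 at 77.7 ± 12.8 RPKM, 2 distal-arm subunits whose levels lay within each other's SD. At the other end stood 3 assembly factors: NUBPL, which delivers iron-sulfur clusters, at 1.44 ± 0.29 RPKM, NDUFAF6 at 1.86 ± 0.11 RPKM and NDUFAF5 at 2.29 ± 0.06 RPKM. With the length of the longest coding transcript in place of the summed exons, NDUFS5 was still first and the same 3 factors were last, while NDUFB10 was at rank 3 and NDUFB7 at rank 7. NDUFS5 has 6 named pseudogenes in GENCODE 29 and NDUFB10 has 2, so part of their counts may be shared with near-identical copies.

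Promoter sequences are shown for the G-quadruplex pattern because the series concerns a ligand of such structures. RefSeq promoters of 300 bases (250 before the transcription start to 50 after it, GRCh38.p14) were found for 42 of the 48 genes; FOXRED1, NDUFAF6, NDUFB5, NDUFB9, NDUFC2 and NDUFS5 had no entry. The pattern was 4 runs of at least 3 G, separated by 1 to 7 bases of any kind (N), searched on both strands. It was found in 4 of the 42 promoters (9.5%), against 30.7% of 15323 promoters of the same length. All 4 matches were on the strand opposite to the gene, so on the gene's strand printed here the runs appear as C, and the capitals mark the stretch covered by the pattern. The windows are chr5:1801279-1801325 (+ strand) for NDUFS6, chr18:9102549-9102622 (+ strand) for NDUFV2, chr19:14572249-14572291 (- strand) for NDUFB7 and chr2:240025481-240025520 (- strand) for NDUFA10, each printed 5′ to 3′ along the gene's strand.
NDUFS6: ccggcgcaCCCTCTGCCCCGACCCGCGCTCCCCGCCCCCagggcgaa
NDUFV2: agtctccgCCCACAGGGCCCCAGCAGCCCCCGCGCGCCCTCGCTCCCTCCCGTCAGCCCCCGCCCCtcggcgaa
NDUFB7: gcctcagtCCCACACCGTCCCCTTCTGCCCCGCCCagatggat
NDUFA10: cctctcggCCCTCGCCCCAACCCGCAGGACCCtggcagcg
Of these 4 genes, only NDUFS6 was called lower in the fit of all 9 libraries, and its values are given with the N module. A further 5 of the 8 called genes had an entry without the pattern, and NDUFB9 and NDUFC2 had none to search.

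Sites of 3 factors known to drive respiratory genes were searched in the same windows, on both strands. The YY1 site AAGATGGCG was found in 5 of the 42 promoters (11.9%) against 2.8% of all 15323, the palindromic NRF1 consensus in 3 (7.1%) against 1.7%, and the ETS core CCGGAAG in 6 (14.3%) against 14.4%. These are matches of letters and not measured binding, and no test was made. The YY1 site lay within 34 bases after the start in each of its 5 genes, which include NDUFA6 and NDUFA9, both called lower with both drugs. These 5 are shown with the site in capitals, at chr22:42090731-42090755 (- strand) for NDUFA6, chr12:4649116-4649140 (+ strand) for NDUFA9, chr19:8321345-8321369 (- strand) for NDUFA7, chr5:53560652-53560676 (+ strand) for NDUFS4 and chr19:1383916-1383940 (+ strand) for NDUFS7.
NDUFA6: gctttggcAAGATGGCGgggagcgg
NDUFA9: tgtgggaaAAGATGGCGgctgccgc
NDUFA7: gcggacggAAGATGGCGtccgccac
NDUFS4: cctgcagcAAGATGGCGgcggtgtc
NDUFS7: ccgaggccAAGATGGCGgtgctgtc
Among these 5, NDUFA7, NDUFS4 and NDUFS7 were not called in the fit of all 9 libraries, with log2 changes for Pt-ttpy of −0.16, 0.22 and −0.37.

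With Pt-ttpy, 6 of the 48 genes were lower than with DMSO and none was higher, while 42 were not called (edgeR quasi-likelihood F test, Benjamini-Hochberg adjusted p under 0.05 over 15558 genes). The 6 are 5 subunits (NDUFS6, NDUFA6, NDUFA9, NDUFC2 and NDUFB9) and the assembly factor NDUFAF2. The share of 12.5% stands against 6.45% of all tested genes called lower (5.59% were called higher), but that background rises with expression. Among genes ranked into 5 equal bins by mean level, 11.2% of the fourth bin and 13.2% of the highest bin were called lower, and these bins hold 19 and 6 of the 48 genes; the middle bin, with another 19, had 5.91%, and the bin below it, with 4, had 1.67%. The share of the 48 genes thus lay between those of the 2 highest bins and above those of the bins that hold the other complex I genes. Median log2 changes of the complex I genes, from the highest bin down, were −0.17, −0.23, −0.15 and 0.06. Over all genes of the same bins they were −0.10, −0.07, 0.02 and 0.21. No difference was tested. All Pt-ttpy libraries lay below all DMSO libraries for 23 of the 48, against 20.6% of all tested genes, and the reverse held for 0 of the 48, against 20.3% of all tested genes. The median log2 change was −0.17 (40 below 0 and 8 above), against 0.03 over all tested genes.

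With cisplatin, 8 of the 48 genes were lower than with DMSO and none was higher: the 6 named for Pt-ttpy, with NDUFB2 and NDUFB10. That is 16.7%, against 9.78% of all tested genes (20.5% were called in either direction), and by expression bin against 20.9% in the highest, 15.5% in the fourth, 9.06% in the middle one and 2.89% in the bin below it. The median log2 change was −0.19 (36 below 0 and 12 above), against 0.01 over all tested genes. All cisplatin libraries lay below all DMSO libraries for 19 genes, against 19.4% of all tested genes. Both comparisons use the same 3 DMSO libraries, so the sharing of calls between them is not independent. For 18 genes all 6 treated libraries were below all 3 DMSO libraries in CPM, against 15% of all tested genes. As shares of library totals this held for 12 genes, against 10.9%. In bulk RNA, fewer cells of a kind and less RNA per cell cannot be told apart. Genes of the fibroblast marker list moved with both treatments: LUM, DCN and COL3A1, 3 of the 5, were higher with each drug, and the list summed to 875 to 985 CPM in DMSO, 1498 to 1764 CPM with cisplatin and 1573 to 1644 CPM with Pt-ttpy. KRT8 and EPCAM, of 8 epithelial markers, were higher with cisplatin at no more than 1.78 CPM, and the 3 blood and endothelial markers summed to no more than 0.185 CPM in any library. The part of these markers in the complex I changes was not tested.

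The calls for Pt-ttpy rested on every library of that group. None of the 48 genes was called by edgeR when any 1 Pt-ttpy library was left out. In those fits the lower calls over all genes fell from 1004 to between 42 and 87. Without DMSO 2, 3 of the 48 were called, where 3.89% of all tested genes were called lower. Without cisplatin 2, 11 were called, where 10.1% of all tested genes were called lower. In a fit without DMSO 2 and cisplatin 2, 17 were called with Pt-ttpy (16 lower and NDUFAF3 higher) and 14 with cisplatin (all lower), where 17.4% and 16.4% of all tested genes were called lower. Those 2 libraries had stood apart in these same data, so leaving them out narrows the spread that the test uses. Over all genes, lower calls rose from 1004 to 2720 with Pt-ttpy and from 1521 to 2559 with cisplatin. For cisplatin the 9 fits without 1 library called 5 to 8 genes, where 5.81% to 8.8% of all tested genes were called lower. NDUFS6, NDUFA6, NDUFA9, NDUFC2 and NDUFAF2 were called in all 9.

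**Figure D2:**
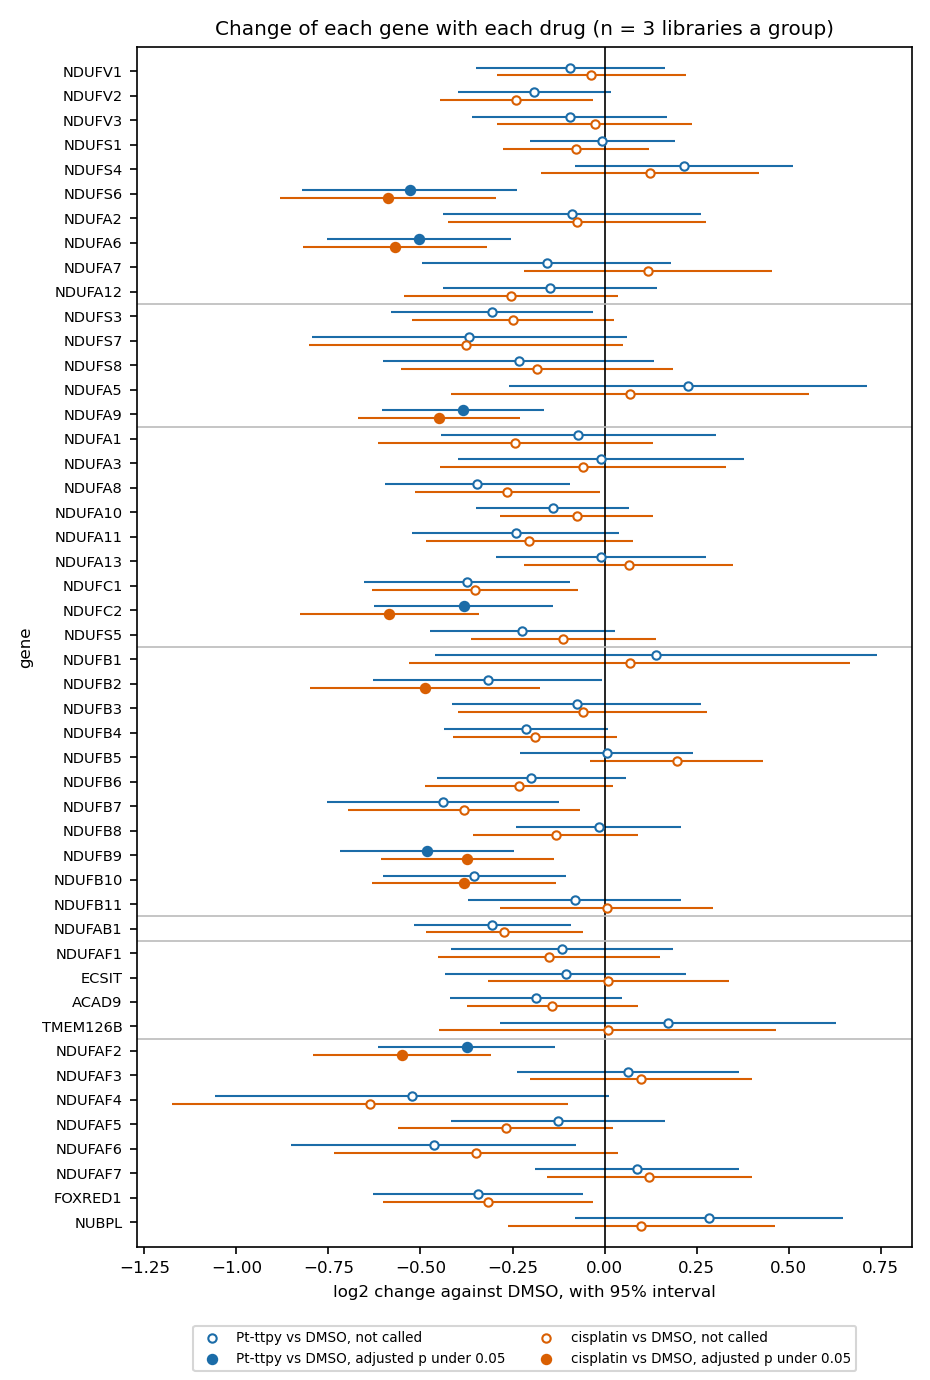
Fitted log2 change against DMSO of each gene (vertical axis, in module order) with Pt-ttpy and with cisplatin, with 95% intervals; filled points passed an adjusted p of 0.05. The 6 filled points for Pt-ttpy and the 8 for cisplatin all lie below 0, and 33 of the 48 intervals of either drug include 0.

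In the N module, NDUFS6 and NDUFA6 fell and the other 8 of 10 subunits were not called with either drug. NDUFS6, a zinc-binding subunit at the junction of the N and Q modules (chromosome 5, 1801400 to 1816605, + strand, GRCh38), was at 44.9, 54.0 and 43.2 CPM with DMSO. It was at 33.4, 37.0 and 28.03 CPM with Pt-ttpy and at 32.6, 29.6 and 32.3 CPM with cisplatin. Every treated library was below every DMSO library. NDUFS6 changed on the log2 scale by −0.53 (SE 0.13, adjusted p = 0.0278, edgeR) with Pt-ttpy and −0.59 (SE 0.13, adjusted p = 0.0122) with cisplatin, or falls of 30.7% and 33.5%.

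NDUFA6, a protein of the LYR family that docks an acyl carrier protein on the matrix arm (chromosome 22, 42085525 to 42090955, - strand), was at 68.7, 70.3 and 65.9 CPM with DMSO. It was at 51.1, 50.2 and 43.1 CPM with Pt-ttpy and at 51.7, 42.9 and 43.5 CPM with cisplatin. The groups did not overlap, and the DMSO libraries lay close together. The log2 change was −0.51 (SE 0.11, adjusted p = 0.0199, edgeR) with Pt-ttpy and −0.57 (SE 0.11, adjusted p = 0.00731) with cisplatin. NDUFV2, which carries an iron-sulfur cluster near the flavin site, was lower in all treated libraries than in DMSO, with log2 changes of −0.19 and −0.24 that did not pass the test (adjusted p = 0.202 and 0.0935, edgeR). NDUFS1, the largest subunit and the carrier of several clusters, was at 252 ± 10.6 CPM with DMSO, 251 ± 11.3 with Pt-ttpy and 239 ± 16.3 with cisplatin (SD, n = 3). NDUFV1, which binds NADH and the flavin, changed by −0.09 and −0.04 on the log2 scale. NDUFS4, an accessory subunit needed for a stable N module, was at 0.22 and 0.12 and not called. The other members, NDUFV3, NDUFA2, NDUFA7 and NDUFA12, had log2 changes between −0.25 and 0.12.

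In the Q module, NDUFA9 fell and the other 4 of 5 subunits were not called. NDUFA9, a nucleotide-binding subunit that helps to join the matrix and membrane arms (chromosome 12, 4649095 to 4694317, + strand), was at 97.0, 109 and 90.4 CPM with DMSO. It was at 77.2, 74.3 and 75.7 CPM with Pt-ttpy and at 73.1, 69.5 and 74.7 CPM with cisplatin. The treated libraries lay close together and none reached the lowest DMSO library. The log2 change was −0.39 (SE 0.10, adjusted p = 0.0310, edgeR) with Pt-ttpy and −0.45 (SE 0.10, adjusted p = 0.0115) with cisplatin.

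The core Q-module subunits NDUFS3, NDUFS7 and NDUFS8 had log2 changes of −0.31, −0.37 and −0.23 with Pt-ttpy and −0.25, −0.38 and −0.18 with cisplatin, with adjusted p from 0.126 to 0.473 (edgeR). NDUFS7 holds the cluster that hands electrons to ubiquinone, and its DMSO libraries were far apart, at 58.9, 96.8 and 58.3 CPM. The high value is that of DMSO 2, and its longest coding transcript has 64.9% GC, near the top of the range of 34.6% to 65.0% in these genes. Without DMSO 2 and cisplatin 2, NDUFS7 was called lower with cisplatin (log2 change −0.26, adjusted p = 0.0159, edgeR). With only DMSO 2 left out, NDUFS7 was not called with cisplatin (−0.09, adjusted p = 0.680, edgeR). NDUFA5, with 35.04% GC, showed the reverse, since DMSO 2 held 0.517 times the mean level of DMSO 1 and 3, and it was not called with either drug. NDUFA5 also has 12 named pseudogenes in GENCODE 29.

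**Figure D3:**
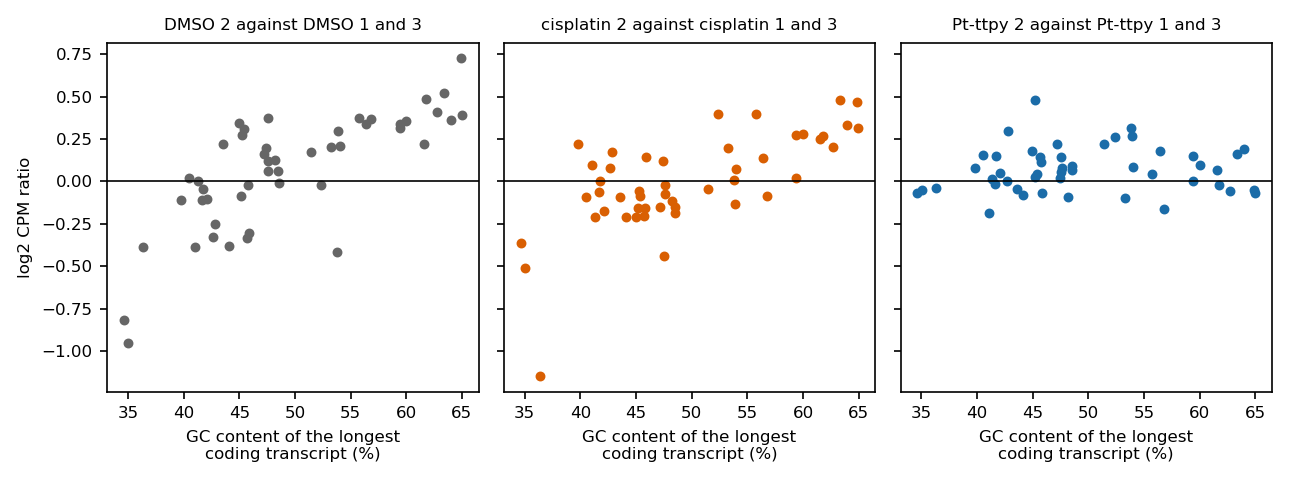
Log2 CPM ratio of each replicate-2 library to the mean of the other 2 libraries of its group (vertical axis) against the GC content of the longest coding transcript (horizontal axis, percent); each point is 1 of the 48 genes. The points rise with GC content in DMSO 2 (r 0.76) and cisplatin 2 (r 0.69) and not in Pt-ttpy 2 (r 0.06).

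In the proximal membrane arm, NDUFC2 fell with both drugs and the other 8 of 9 subunits were not called. NDUFC2, a membrane-anchored subunit (chromosome 11, 78068304 to 78080219, - strand), was at 68.5, 84.9 and 68.5 CPM with DMSO. It was at 56.8, 57.9 and 55.4 CPM with Pt-ttpy and at 52.1, 47.4 and 48.4 CPM with cisplatin. The order was the same in every library, with DMSO highest, Pt-ttpy next and cisplatin lowest. NDUFC2 changed on the log2 scale by −0.38 (SE 0.11, adjusted p = 0.0444, edgeR) with Pt-ttpy and −0.59 (SE 0.11, adjusted p = 0.00591) with cisplatin. The Pt-ttpy call was kept in 2 of 9 fits that each left out a library, and its adjusted p ran up to 0.142 (edgeR). NDUFC2 shares 16.3% of its exon bases with the read-through gene NDUFC2-KCTD14, which was at 0 CPM in DMSO.

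NDUFA8 and NDUFC1, small proximal-arm subunits, were below DMSO in all 6 treated libraries without passing the test. NDUFA8 changed by −0.35 with Pt-ttpy and −0.26 with cisplatin (adjusted p = 0.0700 and 0.124, edgeR), and NDUFC1 by −0.37 and −0.35 (adjusted p = 0.0776 and 0.0712). NDUFS5, the gene with the highest level per length, was at 108, 107 and 108 CPM with DMSO, 102, 95.4 and 79.9 CPM with Pt-ttpy and 111, 91.6 and 96.8 CPM with cisplatin. Its Pt-ttpy libraries lay below DMSO, and its cisplatin libraries overlapped with DMSO. NDUFA13, also known as GRIM-19, and NDUFA3 changed by no more than 0.07 on the log2 scale in either direction. NDUFA1, NDUFA10 and NDUFA11 had log2 changes between −0.24 and −0.07.

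In the distal membrane arm, NDUFB9 fell with both drugs, NDUFB2 and NDUFB10 fell with cisplatin, and the other 8 of 11 subunits were not called. NDUFB9, the LYR-family subunit that docks an acyl carrier protein on the membrane arm (chromosome 8, 124539101 to 124580648, + strand), was at 98.3, 126 and 110 CPM with DMSO. It was at 80.7, 80.5 and 77.7 CPM with Pt-ttpy and at 90.7, 83.7 and 83.4 CPM with cisplatin. The groups did not overlap, and the Pt-ttpy libraries were the lowest. The log2 change was −0.48 (SE 0.11, adjusted p = 0.0191, edgeR) with Pt-ttpy and −0.37 (SE 0.11, adjusted p = 0.0314) with cisplatin. The cisplatin call was kept in 3 of 9 fits that each left out a library. Exons of NDUFB9 overlap those of TATDN1 (4.6%) and MTSS1 (16.5%) on the opposite strand, and without stated strandedness their reads cannot be told apart. Both were at lower levels in DMSO, 11.1 and 5.90 CPM, and neither was called.

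NDUFB10, a subunit facing the intermembrane space (chromosome 16, 1959508 to 1961975, + strand), was at 84.8, 106 and 82.4 CPM with DMSO, 68.2, 76.1 and 69.1 CPM with Pt-ttpy and 71.2, 70.5 and 67.7 CPM with cisplatin. The groups did not overlap with either drug. The log2 change was −0.38 (SE 0.11, adjusted p = 0.0357, edgeR) with cisplatin and −0.35 (SE 0.11, adjusted p = 0.0637) with Pt-ttpy, just outside the threshold. NDUFB2 (chromosome 7, 140690777 to 140722790, + strand) was at 40.1, 51.2 and 40.4 CPM with DMSO, 36.3, 38.2 and 31.2 CPM with Pt-ttpy and 35.9, 28.4 and 29.7 CPM with cisplatin. All treated libraries were below DMSO, and only the cisplatin change passed, at −0.49 (SE 0.14, adjusted p = 0.0328, edgeR) against −0.32 (SE 0.14, adjusted p = 0.160) with Pt-ttpy. The cisplatin call was kept in 2 of 9 fits for NDUFB10 and in 3 of 9 for NDUFB2. The exons of NDUFB2 overlap those of BRAF on the opposite strand over 27.9% of their length, so that the counts of NDUFB2 are uncertain. BRAF was at 46.2 CPM in DMSO, changed by 0.21 on the log2 scale with each drug, and was not called.

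NDUFB7, another intermembrane-space subunit, was at 36.6, 49.1 and 38.2 CPM with DMSO, 31.3, 29.5 and 30.6 CPM with Pt-ttpy and 27.2, 36.5 and 31.3 CPM with cisplatin. All treated libraries were below DMSO, the highest of them cisplatin 2 and the highest DMSO library DMSO 2. Its log2 changes of −0.44 (adjusted p = 0.0677, edgeR) and −0.38 (adjusted p = 0.0807) did not pass. Without those 2 libraries it was called lower with both drugs, at −0.29 (adjusted p = 0.0135, edgeR) and −0.35 (adjusted p = 0.0100). With only DMSO 2 left out, NDUFB7 was called with neither drug, at −0.29 (adjusted p = 0.158, edgeR) and −0.23 (adjusted p = 0.192). NDUFB5 was at 61.1, 55.4 and 58.5 CPM with DMSO, 54.7, 60.7 and 60.3 CPM with Pt-ttpy and 60.4, 73.8 and 66.1 CPM with cisplatin. It had the highest log2 change of the 48 genes with cisplatin, 0.20 (adjusted p = 0.218, edgeR), and the groups overlapped. NDUFB4 and NDUFB6 were below DMSO in all treated libraries, with log2 changes between −0.23 and −0.19 that did not pass. NDUFB1, NDUFB3, NDUFB8 and NDUFB11 had log2 changes between −0.13 and 0.14, and NDUFB4 has 12 named pseudogenes.

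NDUFAB1 is the mitochondrial acyl carrier protein, which serves fatty acid synthesis and is bound by the LYR subunits NDUFA6 and NDUFB9 as a subunit of the complex. It was at 72.2 ± 1.97 CPM with DMSO, 58.5 ± 1.97 with Pt-ttpy and 59.8 ± 4.64 with cisplatin (SD, n = 3). No treated library reached the DMSO range, and the log2 changes of −0.30 (SE 0.10, adjusted p = 0.0637, edgeR) and −0.27 (SE 0.10, adjusted p = 0.0689) fell just outside the threshold. A split of the 36 subunits, made after their values had been seen, put the called genes among the accessory subunits. Of 30 accessory subunits 5 (16.7%) were lower with Pt-ttpy and 7 (23.3%) with cisplatin, against 6.45% and 9.78% of all tested genes. None of the 6 core subunits here (NDUFS1, NDUFS3, NDUFS7, NDUFS8, NDUFV1 and NDUFV2) was called by edgeR with either drug in the fit of all 9 libraries. A class of 6 genes is too small for 0 calls to set it apart at such shares. Without DMSO 2 and cisplatin 2, NDUFV2 was called lower with both drugs (adjusted p = 0.0127 and 0.0424, edgeR) and NDUFS7 with cisplatin. With only DMSO 2 left out, neither of these genes was called with either drug (NDUFV2 adjusted p = 0.189 and 0.0770, edgeR). At an unadjusted p under 0.05, 1 core subunit was lower with each drug, where 2390 (Pt-ttpy) and 2708 (cisplatin) of all 15558 tested genes were. The median log2 change of the core subunits was −0.21 with each drug, against −0.18 and −0.20 for the accessory ones, and no difference between the classes was tested.

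**Figure D4:**
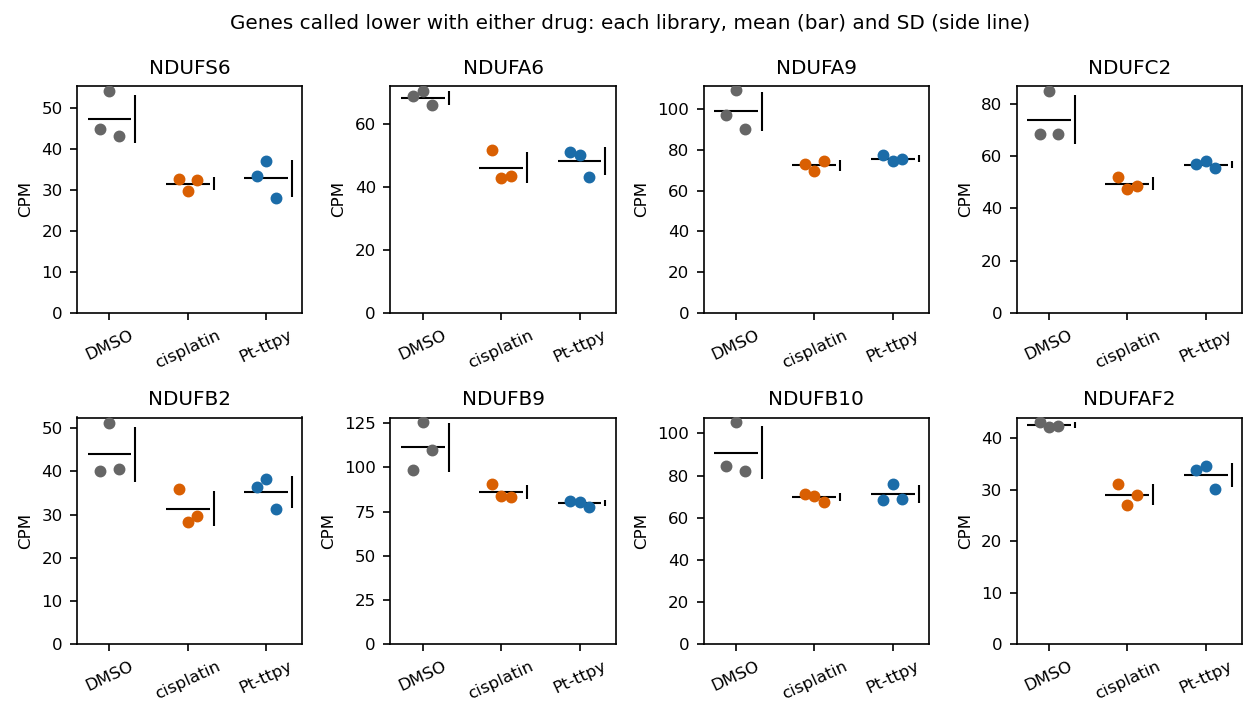
CPM (vertical axis, from 0) of the 8 genes called lower with cisplatin, 6 of them also with Pt-ttpy, in each library of the 3 groups (horizontal axis); points are libraries, bars are means and side lines are SDs (n = 3). In all 8 genes every treated library lies below every DMSO library.

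The 48 genes include 4 of the MCIA complex, which builds the membrane arm around a mtDNA-encoded subunit, and these 4 were not called with either drug. NDUFAF1, ECSIT, ACAD9 and TMEM126B had log2 changes between −0.19 and 0.17 with Pt-ttpy and between −0.15 and 0.01 with cisplatin. TMEM126B, with the lowest GC content of the 48, was at 31.03, 15.5 and 23.6 CPM with DMSO, so that its own controls differed more than the groups did.

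Of the other 8 assembly factors, NDUFAF2 fell with both drugs. NDUFAF2 is a relative of the N-module subunit NDUFA12 and holds its place in late assembly (chromosome 5, 60945129 to 61153037, + strand). It was at 43.2, 42.2 and 42.3 CPM with DMSO, 33.8, 34.6 and 30.1 CPM with Pt-ttpy and 31.1, 27.0 and 29.02 CPM with cisplatin. The DMSO libraries were nearly equal, and all treated libraries were below them. NDUFAF2 changed on the log2 scale by −0.55 (SE 0.11, adjusted p = 0.00721, edgeR) with cisplatin and −0.37 (SE 0.11, adjusted p = 0.0468) with Pt-ttpy. The Pt-ttpy call was kept in 1 of 9 fits that each left out a library, with adjusted p up to 0.179 (edgeR). NDUFA12 itself was not called, at −0.15 and −0.25.

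NDUFAF4, which with NDUFAF3 accompanies the growing Q module, had the lowest log2 change of the 48 genes with cisplatin and was not called. It was at 33.8, 25.8 and 33.7 CPM with DMSO, 22.2, 21.3 and 21.5 CPM with Pt-ttpy and 24.5, 11.1 and 24.5 CPM with cisplatin. All treated libraries were below DMSO, and DMSO 2 and cisplatin 2 were the lowest libraries of their groups. The log2 changes were −0.52 (SE 0.25, adjusted p = 0.178, edgeR) and −0.64 (SE 0.25, adjusted p = 0.0859). Without those 2 libraries, little spread was left within the DMSO and cisplatin groups. NDUFAF4 was then called lower with both drugs, at −0.64 (adjusted p = 2.07e-05, edgeR) with Pt-ttpy and −0.46 (adjusted p = 0.00147) with cisplatin. With only DMSO 2 left out, NDUFAF4 was called with neither drug, at −0.64 (adjusted p = 0.164, edgeR) and −0.75 (adjusted p = 0.0767). NDUFAF4 has a transcript GC content of 36.4% and 4 named pseudogenes. NDUFAF3 was at 0.06 and 0.10 and was not called in the fit of all 9 libraries.

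The remaining factors were not called. NDUFAF6, required for the assembly of mtDNA-encoded ND1, was at 12.7, 11.5 and 11.6 CPM with DMSO, 8.15, 10.7 and 7.11 CPM with Pt-ttpy and 10.3, 8.69 and 9.13 CPM with cisplatin. It was below DMSO in all treated libraries, with log2 changes of −0.46 (adjusted p = 0.103, edgeR) and −0.35 (adjusted p = 0.181). NUBPL was at 10.4, 9.05 and 13.3 CPM with DMSO, 13.9, 12.2 and 13.8 CPM with Pt-ttpy and 11.8, 12.2 and 11.1 CPM with cisplatin. Its log2 change with Pt-ttpy, 0.28 (adjusted p = 0.281, edgeR), was the highest of the 48, and the groups overlapped. NDUFAF5, which modifies a Q-module subunit, was at 16.04, 16.7 and 16.9 CPM with DMSO, 13.5, 16.3 and 15.6 CPM with Pt-ttpy and 13.0, 13.2 and 15.0 CPM with cisplatin, below DMSO in every cisplatin library but overlapping for Pt-ttpy. FOXRED1, an oxidoreductase-like factor, was below DMSO in all treated libraries at −0.34 and −0.32 (adjusted p = 0.102 and 0.105, edgeR), and NDUFAF7, a methyltransferase, was at 0.09 and 0.12.

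Pt-ttpy and cisplatin were then compared directly. Their doses differ, 5.5 and 0.6 µM, each the IC80 of its drug, so the comparison is of doses matched by IC80 and not by concentration. None of the 48 genes was called by edgeR in either direction, where 0.456% of all tested genes were lower and 0.0578% higher with Pt-ttpy, or 0.514% in all; none had an unadjusted p under 0.05, and DESeq2 also called none. The median log2 difference was −0.02, with 25 genes below 0 and 23 above, against 0.00 over all tested genes. All 48 intervals (95%) of the difference included 0. The intervals of 43 genes lay within 1.5-fold in both directions and all 48 within 2-fold.

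The libraries of the 2 drugs did not overlap in 4 of the genes, against 10.1% of all tested genes with Pt-ttpy lower and 10.5% with Pt-ttpy higher. NDUFA7 and NDUFB9 were lower with Pt-ttpy, and NDUFC2 and NDUFB8 were higher. NDUFA7, an N-module subunit, was at 20.9, 20.4 and 18.6 CPM with Pt-ttpy, 21.4, 28.7 and 22.3 CPM with cisplatin and 19.7, 26.3 and 20.8 CPM with DMSO. Its log2 difference of −0.28 (interval −0.61 to 0.06, adjusted p = 0.705, edgeR) was the largest of the 48, and the high library of each of the other groups was its replicate 2. NDUFC2 differed by 0.20 (interval −0.04 to 0.45, adjusted p = 0.696, edgeR) and NDUFB9 by −0.11 (interval −0.35 to 0.13). NDUFA7 and NDUFB8 share 32.3% and 33.8% of their exon bases with another coding gene on the same strand.

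The wider pathway was described with lists outside the 48 genes. Complexes II to V were represented by 38 nuclear subunits, of which 7 fell with Pt-ttpy (18.4%) and 12 with cisplatin (31.6%) and none rose (6.45% and 9.78% of all tested genes fell, and 13.2% and 20.9% of those in the highest expression bin), with median log2 changes of −0.22 and −0.27. SDHB, the iron-sulfur subunit of complex II, had the smallest p of the list with each drug and changed by −0.60 and −0.64 (adjusted p = 0.00855 and 0.00264, edgeR). UQCRFS1, the Rieske iron-sulfur protein of complex III, changed by −0.50 and −0.47, COX6B1 of complex IV by −0.38 and −0.43, and ATP5MC3, a ring subunit of ATP synthase, by −0.49 and −0.60, all called lower with both drugs. Of 12 further complex I assembly factors, NDUFAF8 was lower with Pt-ttpy (−0.45, adjusted p = 0.0324, edgeR) and SFXN4 with cisplatin (−0.45, adjusted p = 0.0305). NDUFA4, once counted as a complex I subunit and now placed in complex IV, was at −0.04 and −0.13 and not called.

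The 7 mtDNA-encoded complex I genes were not called by edgeR with either drug, and none had an unadjusted p under 0.05. Their DMSO sum of 5833 to 6263 CPM lay inside the spread of the cisplatin libraries, which was 2333 to 15410 CPM, whereas the 48 nuclear genes summed to 2630 to 2940 CPM with DMSO, 2379 to 2456 with cisplatin and 2369 to 2477 with Pt-ttpy. The nuclear sum in CPM was thus lower in all 6 treated libraries than in all DMSO libraries, and the mitochondrial sum was not. As a share of all counts, without TMM scaling, the nuclear sum overlapped: it was 0.263% in cisplatin 2, against 0.261% in DMSO 1 and 0.258% in DMSO 3. Of 8 regulators of respiratory genes, PPARGC1A was at 0 CPM in all 9 libraries and was not tested. The other 7 held no call with Pt-ttpy, where 3 were lower at an unadjusted p under 0.05, against 2390 of all 15558 tested genes. Of these 7 regulators, 3 were called lower with cisplatin, against 9.78% of all tested genes: ESRRA (−0.42), NRF1 (−0.38) and PPARGC1B (−0.60), with adjusted p of 0.0266, 0.0408 and 0.0441 (edgeR). With Pt-ttpy the same genes were at −0.38, −0.20 and −0.61, and ESRRA and PPARGC1B lay just outside the threshold (adjusted p = 0.0505 and 0.0552, edgeR). YY1 was at 0.05 and 0.03.

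**Figure D5:**
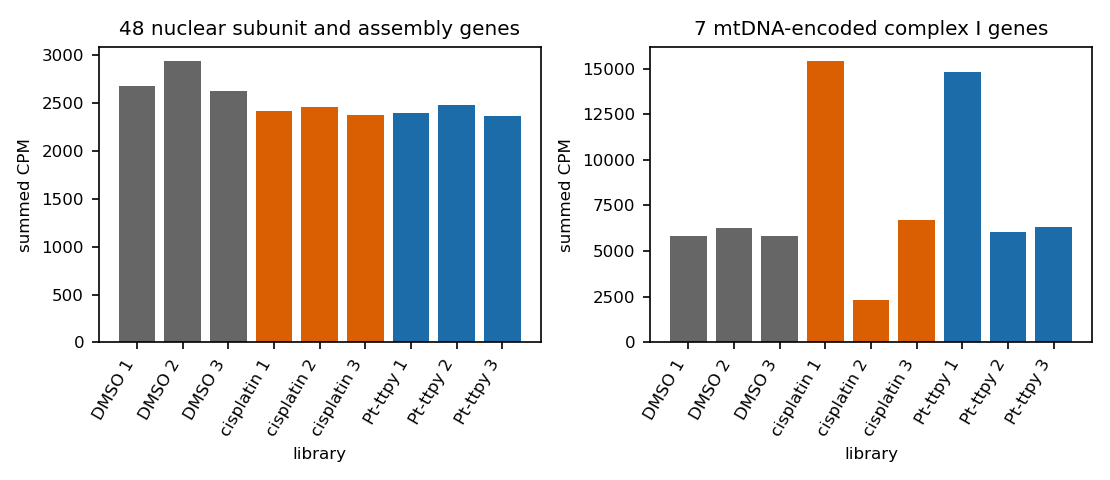
Summed CPM (vertical axes, from 0) of the 48 nuclear complex I genes and of the 7 mtDNA-encoded complex I genes in each of the 9 libraries (horizontal axes). The nuclear sum in TMM-scaled CPM is lower in all treated libraries than in the DMSO libraries, which does not hold for the unscaled share of counts in cisplatin 2, and the mitochondrial sum is high in cisplatin 1 and Pt-ttpy 1 and low in cisplatin 2.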

How the data were processed

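The authors deposited raw counts per gene for the 9 libraries. RNA was purified on columns and libraries came from a SMARTER kit for mRNA, per the labels' protocols. The submitters' processing notes name GRCh38, and what aligned and counted the reads, with or without strand, is not given in the sources used here. The table holds 24542 genes and loci, of which 19974 carry Ensembl identifiers (all in GENCODE 29) and 4568 are named newGene. Every column belonged to a sample of the series. Counts were analysed in R 4.3.3 with edgeR 4.0.16: filterByExpr (minimum count 10), TMM factors, and a robust quasi-likelihood fit of the 3 group means to the 9 libraries together, with a prior count of 0.125. p-values were adjusted over all 15558 tested genes. The 48 genes, the pathway lists and the tests were chosen with earlier results of these data known. Intervals are 95%. Exon overlaps, lengths and GC content come from GENCODE 29.

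Values in each library are given for genes called in any comparison, for the 5 with the smallest p in each comparison, and for the 3 highest and 3 lowest per length; those of NDUFS7, NDUFA5, TMEM126B and NDUFAF4 were added after they had been seen. Up to 4 genes per pathway list are named, by smallest p. The alternatives were other scaling factors, no filter, DESeq2 1.42.0, fewer libraries and a replicate block. The test was tried on simulated counts with planted changes. No libraries of the same group were duplicates of each other, and pairs across groups were not checked for this.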

Additional observations from a re-analysis of the deposited data

How the results depend on the processing

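No call of the 48 genes changed direction in any of the 17 alternatives. The count with Pt-ttpy moved from 6 to 3 with upper-quartile factors, 11 with DESeq2's Wald test, 17 without DMSO 2 and cisplatin 2 (7 libraries), and 0 to 11 over the 9 fits without 1 library. It was 0 without any 1 of the Pt-ttpy libraries, 3 without DMSO 2 and 11 without cisplatin 2. The share of all tested genes called lower with Pt-ttpy moved too, from 6.45% to 4.28% (upper quartile), 9.58% (DESeq2) and 17.4% (7 libraries). It was 0.264% to 0.545% without 1 Pt-ttpy library, 3.89% without DMSO 2 and 10.1% without cisplatin 2. With cisplatin the count of the 48 moved from 8 to 5 with upper-quartile factors or library totals, 4 with the 6 libraries of the comparison alone, 14 with the 7 libraries, and 5 to 8 without 1 library, the lowest without cisplatin 3, Pt-ttpy 1 or Pt-ttpy 2. Of all tested genes, the share called lower with cisplatin moved from 9.78% to 5.87% (upper quartile), 6.06% (totals), 2.6% (6 libraries) and 16.4% (7 libraries). Without 1 library it was 5.81% to 8.8%. Upper-quartile factors and library totals shifted the median of all genes to about 0.10 against DMSO and moved the cisplatin median of the 48 genes from −0.19 to −0.10 and −0.091. They called 1050 genes of the whole table higher and 666 lower with Pt-ttpy and 1940 and 913 with cisplatin (upper quartile), or 1005 and 773, and 1995 and 943 (totals), against 870 and 1004, and 1669 and 1521, with TMM. The cause of these shifts was not tested. The median of Pt-ttpy against cisplatin ran from −0.016 to 0.023 without 1 library, and the count stayed at 0. Signs changed only in values that were called neither in the 9-library fit nor under the alternative. With 7 libraries 10 of the 48 genes changed sign with Pt-ttpy, 7 with cisplatin and 12 between the drugs. Among the genes with values in each library these include NDUFB5 with Pt-ttpy (−0.025), NUBPL with cisplatin (−0.046) and NDUFB7 between the drugs (0.054). Others include NDUFA5 (−0.02) and TMEM126B (−0.05) with Pt-ttpy and NDUFS4 (−0.01) with cisplatin. Among the same genes, over the fits without 1 library, NDUFB5 with Pt-ttpy ran from −0.026 to 0.052, and with cisplatin NDUFA7 ran from −0.026 to 0.26 and NUBPL from −0.015 to 0.27. Between the drugs, over the same fits, NDUFS6 ran from −0.037 to 0.16, NDUFB10 from −0.023 to 0.058, NDUFB7 from −0.15 to 0.055 and NDUFAF6 from −0.29 to 0.0084. The scale by share of library totals was added after seeing the data.

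Whether replicate numbers pair the libraries across groups was not settled. The correlation of deviations between libraries with the same number ran from −0.04 to 0.22, and only DMSO 2 and cisplatin 2 exceeded 0.1. With a replicate block 8 genes were called with Pt-ttpy, 10 with cisplatin and 0 between the drugs. Of all tested genes, 8.06%, 11.6% and 0.746% were called lower in these fits. Each DMSO library correlated best with the cisplatin library of its own number (0.0996, 0.22 and 0.082), and the reverse also held. For Pt-ttpy libraries this was mixed. Among DMSO libraries, Pt-ttpy 2 correlated best with its own number (0.041), and Pt-ttpy 1 with DMSO 3 (0.054). Among cisplatin libraries, Pt-ttpy 1 correlated best with its own number (0.042), and Pt-ttpy 2 with cisplatin 3 (0.066). Pt-ttpy 3 correlated best with its own number in neither group.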
